A study of Mus musculus with 6 samples.

Results

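The cytosolic ribosomal protein genes were followed in mouse glioma cells after an siRNA against YY1, with the large and the small ribosomal subunit kept apart. Genes were taken by symbol: Rpl or Rps followed by a number and at most 1 letter, together with Rplp0, Rplp1, Rplp2, Rpsa and Fau. This gave 83 of the 24982 gene symbols in the count tables, 50 for the large and 33 for the small subunit. The cells were KMWT1, a mouse glioma line grown in medium with serum, and RNA was measured by sequencing 48 hours after transfection. The YY1 siRNA group (samples 4, 5 and 6) received a commercial pool of siRNAs against YY1, and the control siRNA group (samples 1, 2 and 3) received a control siRNA, so all 6 samples were transfected. The study compared the groups to see which genes depend on YY1, a zinc finger protein that can activate or repress transcription. All samples came from 1 cell line, and the labels do not say whether the 3 samples per group were grown apart. P-values therefore measure only how far these samples spread, and that spread may be technical.

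A cytosolic ribosome is built from a large subunit, which joins amino acids into a chain, and a small subunit, which reads the mRNA. Each subunit is made of ribosomal RNA and many proteins that are needed in equal numbers, with the stalk proteins P1 and P2 as the known exception. Most of these proteins are encoded by mRNAs that begin with a run of pyrimidines, the 5′ terminal oligopyrimidine or TOP tract, through which the mTOR pathway controls their translation and stability together. Growing tumor cells spend much of their mRNA on these genes. YY1 has a history with them: in mouse it was first described as the delta factor that binds the promoters of the ribosomal protein genes Rpl30 and Rpl32.

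Between 15738457 and 20644057 counts fell in genes per sample. YY1 siRNA sample 6 had the fewest counts, the highest share of counts in no gene (11.3%, against 7.99% to 9.03% in control siRNA samples), and the only table not marked as combined. Yy1 mRNA stood at 81.2, 77.6 and 78.6 CPM in YY1 siRNA samples 4, 5 and 6, against 127, 128 and 127 CPM in control siRNA samples 1, 2 and 3, where CPM are counts scaled to library size with TMM factors. The groups did not overlap, and the log2 fold change was -0.68 ± 0.06 (SE, edgeR quasi-likelihood F test, Benjamini-Hochberg adjusted p = 0.00154). It was the only gene of 12148 tested with an adjusted p under 0.05. Of 10 glioma or neural progenitor markers 7 averaged at least 10 CPM, Sox2, Nes and Vim among them, while Olig2 and Fabp7 were at 0 in every sample and Gfap was under 1 CPM. All 6 neuron markers and 3 of 4 oligodendrocyte markers were under 1 CPM, 5 of 7 microglia and macrophage markers and 3 of 4 endothelial markers also, and 4 of 5 fibroblast and pericyte markers were above 10 CPM.

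No ribosomal protein gene passed the test between YY1 siRNA and control siRNA cells, in either subunit and in either direction. The share of all genes that passed was 0.00823%. Of the 83 genes, 77 had enough counts to be tested (45 large, 32 small), and the smallest adjusted p among them was 0.468. DESeq2 and limma-voom also gave 0 ribosomal protein genes, and edgeR gave 0 at an unadjusted p under 0.05, where 10.8% of all genes stood. That count of 0 became 17 of 78 when YY1 siRNA sample 5 was left out, where 11.7% of all genes stood. It became 15 of 77 without control siRNA sample 3 (11.3% of all genes) and 9 of 78 without YY1 siRNA sample 4 (19.1% of all genes). No ribosomal protein gene had an adjusted p under 0.05 in these settings. Fitted changes were above 0 for 42 of 45 large-subunit genes and 32 of 32 small-subunit genes, against 50.2% of all genes. The median log2 fold change was 0.18 for the large subunit (quartiles 0.13 and 0.29) and 0.27 for the small subunit (quartiles 0.20 and 0.35), against 0.00070 for all genes. With offsets for transcript length and GC the medians were 0.08 for the large and 0.16 for the small subunit, and 59 of the 77 genes were above 0. The 95% interval included 0 for all 77 genes tested, and for 70 of them its upper end was below a log2 change of 1. None of the 77 genes tested had groups that did not overlap. Of all 12148 genes tested, 7.36% did so with YY1 siRNA higher and 8.91% with YY1 siRNA lower.

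Those positive medians rested largely on YY1 siRNA sample 6. Of the 77 genes tested, 70 (41 large, 29 small) were highest in that sample of all 6, which was the case for 27.1% of all genes. The median large-subunit gene stood at 0.10, -0.02 and 0.44 on the log2 scale in YY1 siRNA samples 4, 5 and 6, relative to the mean of the control siRNA samples, and at -0.11, -0.01 and 0.11 in control siRNA samples 1, 2 and 3. The median small-subunit gene stood at 0.07, 0.04 and 0.66 in YY1 siRNA samples 4, 5 and 6, and at -0.16, -0.01 and 0.18 in control siRNA samples 1, 2 and 3. YY1 siRNA samples 4 and 5 lay within the range of the control siRNA samples in both subunits, and sample 6 lay above it. Without YY1 siRNA sample 6, a choice that also leaves only the 5 tables marked as combined, the median log2 fold change was 0.04 for each subunit and 59 of the 77 genes were above 0. What sets sample 6 apart was not tested. A different mix of cells and a different RNA level per cell cannot be told apart in bulk samples.

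**Figure D1:**
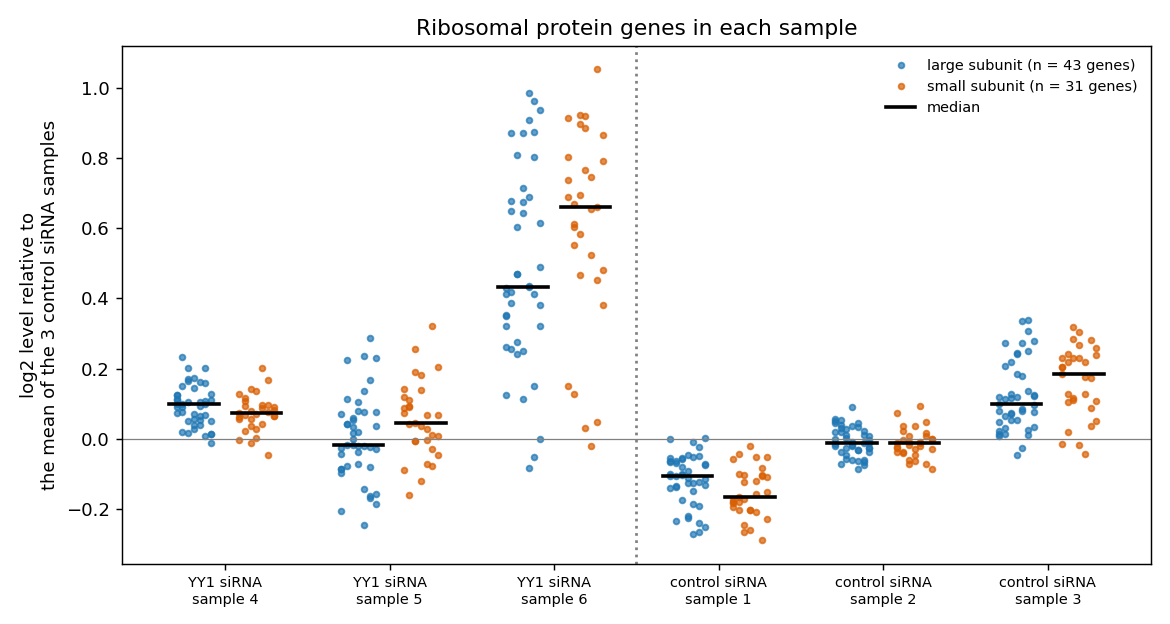
Each point is 1 ribosomal protein gene with a mean of at least 10 CPM, plotted as its log2 level relative to the mean of the 3 control siRNA samples, for the large (43 genes) and the small subunit (31 genes) in each sample; bars are medians. In YY1 siRNA sample 6 most genes of both subunits lie above every other sample, and the small-subunit median is higher than the large-subunit median.

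Ribosomal protein genes held 6.28%, 6.23% and 8.78% of the counts in genes in YY1 siRNA samples 4, 5 and 6, against 5.45%, 5.94% and 6.73% in control siRNA samples 1, 2 and 3. The groups overlapped, since control siRNA sample 3 was above YY1 siRNA samples 4 and 5. Large-subunit genes took 4.00% ± 0.75 of the counts in YY1 siRNA cells and 3.47% ± 0.33 in control siRNA cells (SD, n = 3 each). Small-subunit genes took 3.10% ± 0.72 in YY1 siRNA cells and 2.57% ± 0.32 in control siRNA cells (SD, n = 3 each). Both differences were smaller than the SD of the YY1 siRNA samples. The excess in YY1 siRNA sample 6 over the control mean was spread over many genes: Rps3, Rps14, Rpl9 and Rpl13a, the 4 that contributed most, made up 22.7% of it.

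The ratio of large-subunit to small-subunit counts is free of library size. On the log2 scale it was 0.45, 0.38 and 0.31 in YY1 siRNA samples 4, 5 and 6, against 0.47, 0.44 and 0.40 in control siRNA samples 1, 2 and 3. The groups overlapped: YY1 siRNA sample 4 lay among the control siRNA samples, and YY1 siRNA samples 5 and 6 lay below all of them. The means were 0.378 ± 0.071 in YY1 siRNA cells and 0.439 ± 0.038 in control siRNA cells (SD, n = 3 each), a difference of -0.06 that is smaller than the SD of the YY1 siRNA samples. It was -0.03 without YY1 siRNA sample 6 and -0.10 without YY1 siRNA sample 4. In both groups the sample with the largest share of ribosomal protein counts had the lowest ratio: these were YY1 siRNA sample 6, with a share of 8.78%, and control siRNA sample 3, with 6.73%. YY1 siRNA samples 4 and 5 did not follow this order.

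**Figure D2:**
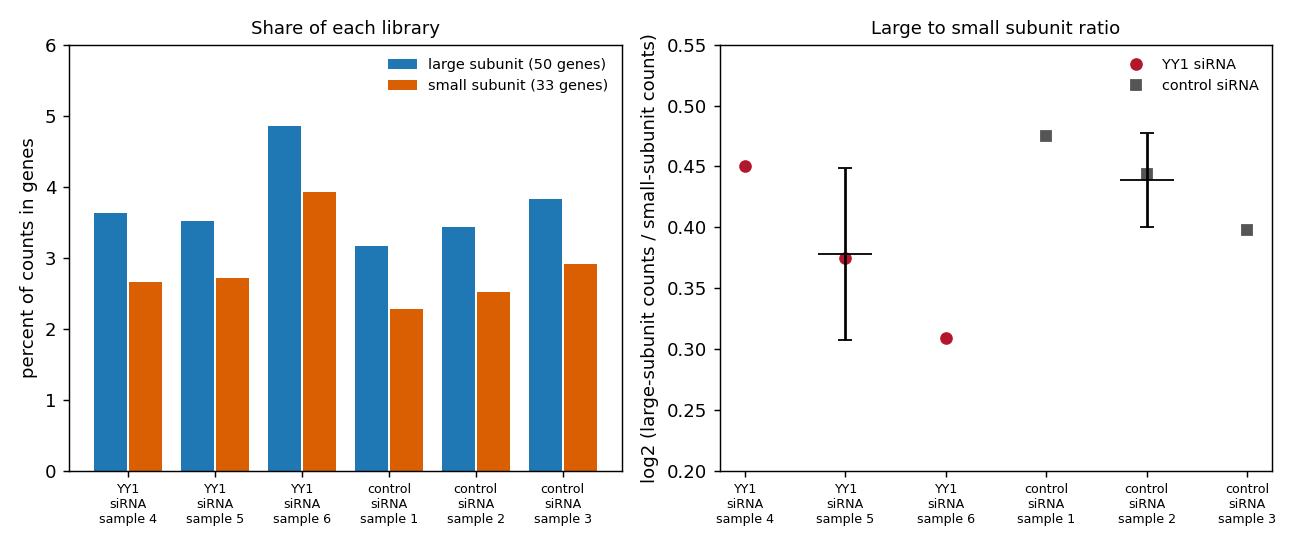
The left panel shows the percent of counts in genes that fell in large-subunit and small-subunit genes in each sample. The right panel shows the log2 ratio of summed large-subunit to summed small-subunit counts per sample, with the group mean and SD (n = 3 each); YY1 siRNA samples 5 and 6 lie below the control siRNA samples, and sample 4 lies among them.

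In the large subunit the fitted changes were highest for Rpl13a and Rpl9. Rpl13a, whose protein is known outside the ribosome as part of an interferon-dependent silencing complex, had 1928, 2045 and 3264 CPM in YY1 siRNA samples 4, 5 and 6, against 1418, 1600 and 2074 CPM in control siRNA samples 1, 2 and 3. Control siRNA sample 3 was above both YY1 siRNA samples 4 and 5, so the groups overlapped. The log2 fold change was 0.51 ± 0.23 (SE, adjusted p from edgeR = 0.472), and it was 0.22 without YY1 siRNA sample 6.

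Rpl9 encodes a protein near the base of the P stalk, where elongation factors dock, and had 1716, 1964 and 3306 CPM in YY1 siRNA samples 4, 5 and 6, against 1381, 1596 and 2106 CPM in control siRNA samples 1, 2 and 3. It was highest in YY1 siRNA sample 6, and control siRNA sample 3 exceeded the other 2 YY1 siRNA samples. Its log2 fold change of 0.46 ± 0.27 (SE, adjusted p from edgeR = 0.543) became 0.11 without YY1 siRNA sample 6.

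Rpl24 and Rpl23a had, with Rpl13a, the smallest p-values of the large subunit. Rpl24, which sits in a bridge to the small subunit, averaged 241.0 ± 50.4 CPM in YY1 siRNA cells and 196.6 ± 13.9 CPM in control siRNA cells (SD, n = 3 each). Rpl23a, which lies at the exit of the tunnel through which the new chain leaves, averaged 649.8 ± 52.0 CPM in YY1 siRNA cells and 574.0 ± 24.8 CPM in control siRNA cells (SD, n = 3 each). Their edgeR adjusted p were 0.468 and 0.473, and their groups overlapped. Leaving out YY1 siRNA sample 6 moved Rpl23a the least of the 3 genes, with a log2 fold change of 0.13 without that sample, against 0.18 with it.

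Rpl4 and Rpl29 had the lowest fitted changes of the large subunit. Rpl4, whose long loop lines the exit tunnel, had 1757, 1389 and 1554 CPM in YY1 siRNA samples 4, 5 and 6, against 1634, 1685 and 1617 CPM in control siRNA samples 1, 2 and 3. Here sample 6 was the middle one of the YY1 siRNA samples and lay below all control siRNA samples, unlike for most genes of the subunit. The log2 fold change was -0.07 ± 0.10 (SE, adjusted p from edgeR = 0.804), with or without YY1 siRNA sample 6. Rpl29, whose protein was also described as heparin-binding, averaged 122.4 ± 9.2 CPM in YY1 siRNA cells and 127.1 ± 3.1 CPM in control siRNA cells (SD, n = 3 each), a log2 fold change of -0.06 ± 0.07 (SE).

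In the small subunit Rps14 and Rps3 had the highest fitted changes and, with Rps10, the smallest p-values. Rps14, a protein of the platform whose human gene is lost in the 5q- syndrome, had 1816, 2155 and 3576 CPM in YY1 siRNA samples 4, 5 and 6, against 1411, 1733 and 2095 CPM in control siRNA samples 1, 2 and 3. YY1 siRNA samples 5 and 6 were above all control siRNA samples and YY1 siRNA sample 4 was not. The log2 fold change was 0.53 ± 0.26 (SE, adjusted p from edgeR = 0.504), and it was 0.18 without YY1 siRNA sample 6.

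Rps3, at the channel where mRNA enters and also known as a DNA repair enzyme, had 2414, 2611 and 4071 CPM in YY1 siRNA samples 4, 5 and 6, against 1818, 2158 and 2662 CPM in control siRNA samples 1, 2 and 3. Control siRNA sample 3 was above YY1 siRNA samples 4 and 5. The log2 fold change was 0.45 ± 0.22 (SE, adjusted p from edgeR = 0.494), and it was 0.18 without YY1 siRNA sample 6. Rps10, a protein of the head, averaged 582.1 ± 130.2 CPM in YY1 siRNA cells and 481.1 ± 49.0 CPM in control siRNA cells (SD, n = 3 each).

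At the low end stood Rps4x and Rps29. Rps4x, the X-linked copy of a protein in the foot of the subunit, had 1433, 1201 and 1332 CPM in YY1 siRNA samples 4, 5 and 6, against 1288, 1338 and 1290 CPM in control siRNA samples 1, 2 and 3. The YY1 siRNA samples lay on both sides of the control siRNA samples, and the log2 fold change was 0.02 ± 0.09 (SE, adjusted p from edgeR = 0.949). Rps29, a small zinc-binding protein, averaged 436.0 ± 46.9 CPM in YY1 siRNA cells and 426.7 ± 10.8 CPM in control siRNA cells (SD, n = 3 each).

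**Figure D3:**
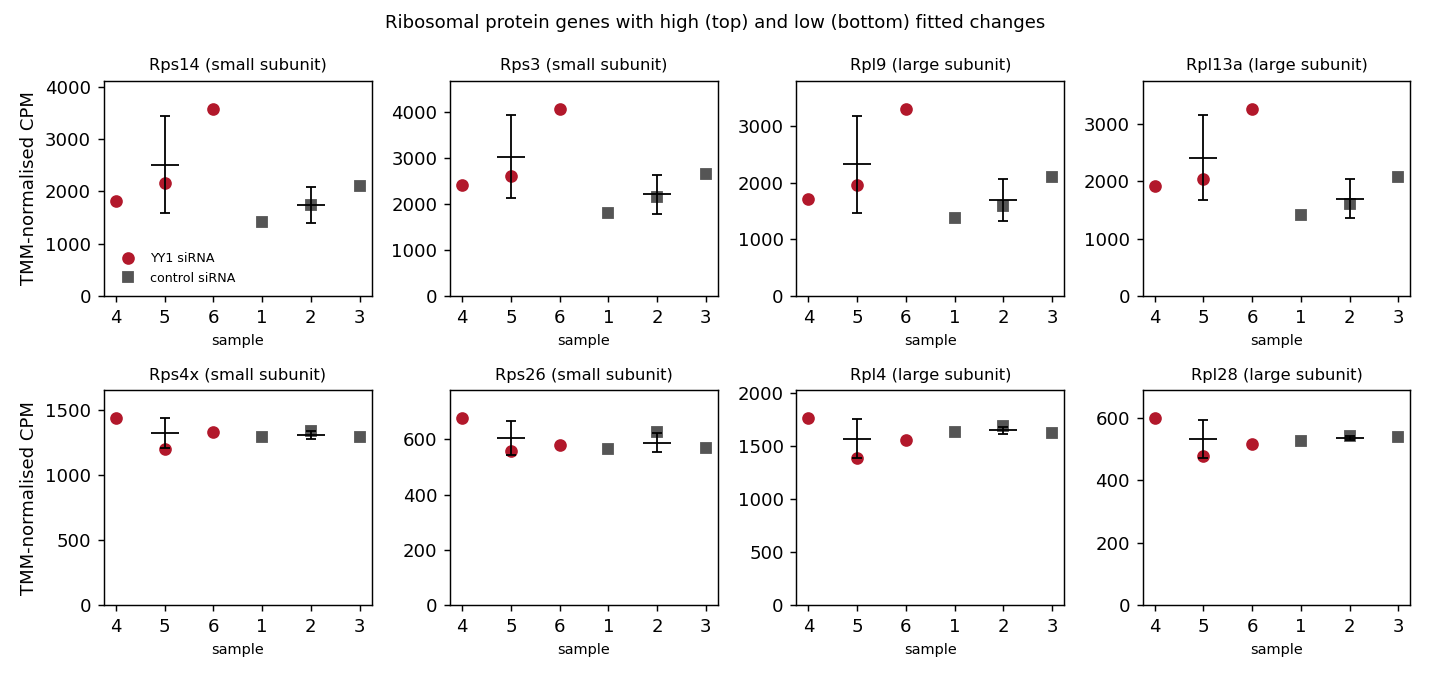
Levels in TMM-normalised CPM in each sample for 8 ribosomal protein genes, 2 per subunit with high (top row) and 2 per subunit with low fitted changes (bottom row), with the group mean and SD (n = 3 each). In the top row YY1 siRNA sample 6 stands alone and control siRNA sample 3 is the highest control; in the bottom row neither sample stands out.

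Grouped by place in the large subunit, all genes of the P stalk and of the 5S particle were fitted above 0 without passing the test. The P stalk, which recruits the elongation factors, has Rplp0 and Rpl12 at its base and Rplp1 and Rplp2 as its arms. Rplp0 averaged 2674 ± 483 CPM in YY1 siRNA cells and 2418 ± 219 CPM in control siRNA cells, Rplp1 averaged 1461 ± 256 CPM in YY1 siRNA cells and 1398 ± 74 CPM in control siRNA cells (SD, n = 3 each). Rplp2 averaged 722.1 ± 129.6 CPM in YY1 siRNA cells and 675.4 ± 34.1 CPM in control siRNA cells, and Rpl12 averaged 1593 ± 379 CPM in YY1 siRNA cells and 1310 ± 212 CPM in control siRNA cells (SD, n = 3 each). The arms had the smaller log2 fold changes of the 4 genes, 0.06 for Rplp1 and 0.10 for Rplp2, against 0.15 for Rplp0 and 0.28 for Rpl12, and none of these differences between genes was tested.

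The 5S particle carries the 5S ribosomal RNA into the ribosome and, when left over, binds the p53 regulator Mdm2. Of its partners, Rpl5 averaged 1838 ± 649 CPM in YY1 siRNA cells and 1361 ± 253 CPM in control siRNA cells, while Rpl11 averaged 739.1 ± 130.7 CPM in YY1 siRNA cells and 642.2 ± 52.6 CPM in control siRNA cells (SD, n = 3 each). Their log2 fold changes were 0.43 ± 0.25 and 0.20 ± 0.12 (SE, adjusted p from edgeR = 0.541 and 0.530), and the difference between the partners was not tested. The 6 tested genes around the tunnel exit had a median log2 fold change of 0.29, and 4 genes near the catalytic centre (Rpl3, Rpl4, Rpl8 and Rpl10) had a median of 0.11.

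In the small subunit the median log2 fold change was 0.30 over 3 genes of the mRNA entry (Rps2, Rps3 and Fau) and 0.13 over 4 genes of the mRNA exit (Rpsa, Rps14, Rps26 and Rps28). It was 0.22 over 3 genes of the decoding site, 0.25 over 6 genes of the foot and 0.29 over 8 genes of the head. These groups mixed genes with high and low values, as with Rps14 at 0.53 beside Rps26 at 0.04 in the mRNA exit. The genes whose proteins are made as ubiquitin-type fusions were Rps27a, with 1042 ± 311 CPM in YY1 siRNA cells and 888.9 ± 95.1 CPM in control siRNA cells, and Fau, with 513.9 ± 152.8 CPM in YY1 siRNA cells and 416.9 ± 63.1 CPM in control siRNA cells (SD, n = 3 each). Both overlapped between groups.

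**Figure D4:**
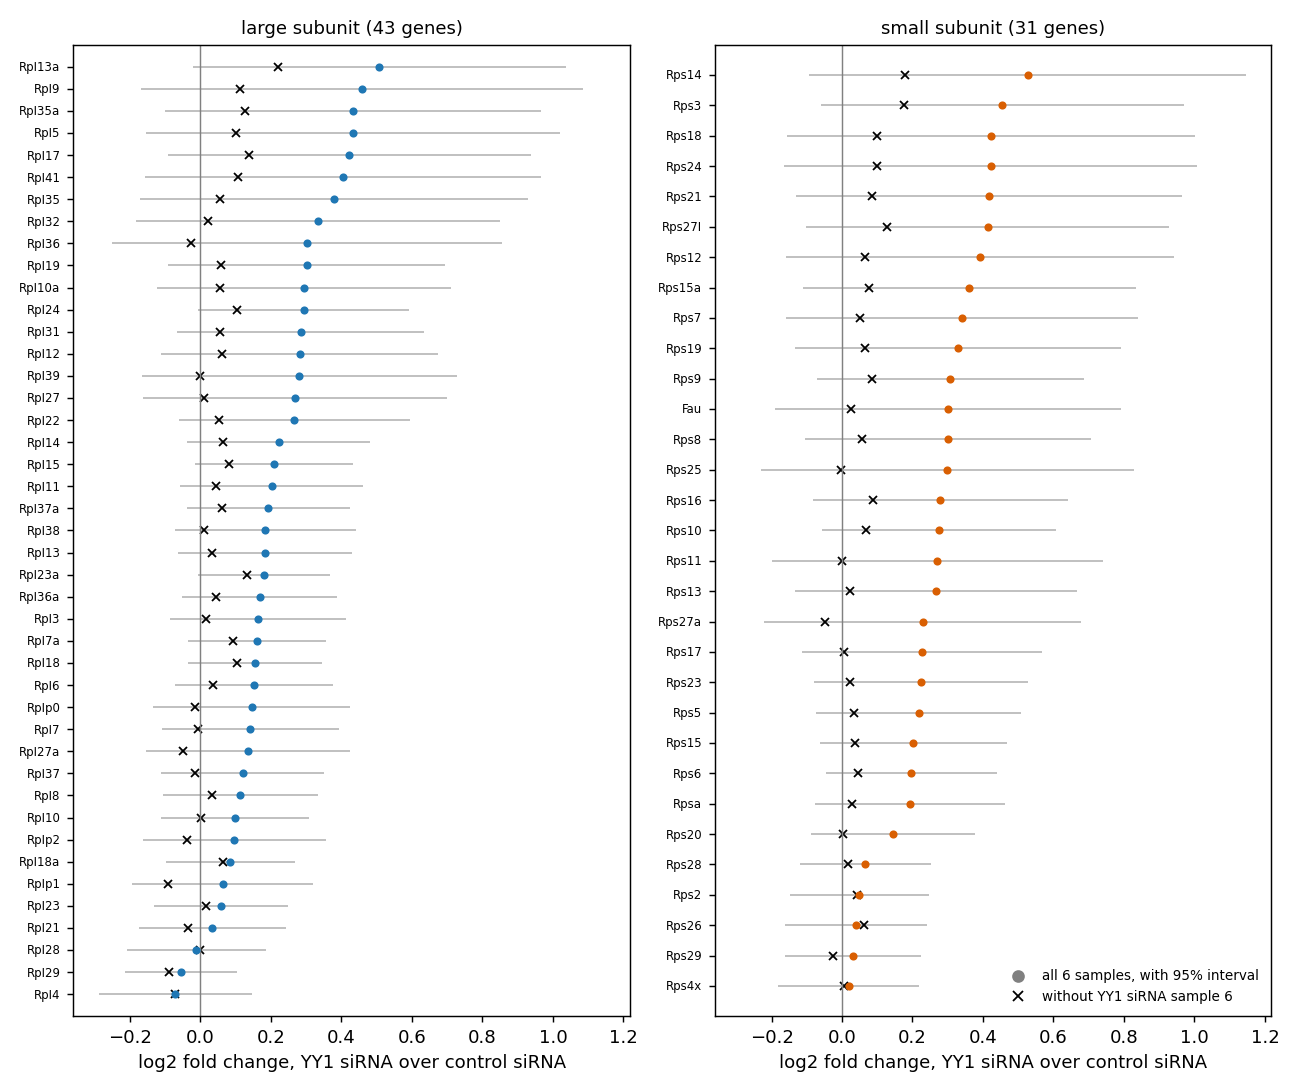
Fitted log2 fold changes of YY1 siRNA over control siRNA for the 43 large-subunit and 31 small-subunit genes with a mean of at least 10 CPM, as points with 95% intervals over all 6 samples; crosses are the values without YY1 siRNA sample 6. Every interval includes 0, and most crosses lie nearer to 0 than their points.

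Several gene copies within the families were silent or nearly so. Of the paralogs known mainly from other tissues, Rpl3l had 0 counts in every YY1 siRNA sample and 1 or 2 in the control siRNA samples, and Rpl10l and Rpl39l had at most 1 count in any sample. Their parents were high, with Rpl3 at 1032 ± 172 CPM in YY1 siRNA cells and 921.1 ± 64.1 CPM in control siRNA cells, and Rpl39 at 866.7 ± 261.0 CPM in YY1 siRNA cells and 713.2 ± 57.5 CPM in control siRNA cells (SD, n = 3 each). Rpl10, the third parent, averaged 665.1 ± 80.1 CPM in YY1 siRNA cells and 621.4 ± 25.5 CPM in control siRNA cells (SD, n = 3 each). Rps4l had 0 counts in all 6 samples, which allows up to 3 counts or 0.145 to 0.191 CPM per sample.

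Rps27l, a p53-responsive paralog of Rps27, was the one of the 5 paralogs Rpl3l, Rpl10l, Rpl39l, Rps4l and Rps27l with enough counts to test. It had 221.0, 239.2 and 378.5 CPM in YY1 siRNA samples 4, 5 and 6, against 177.1, 203.6 and 248.4 CPM in control siRNA samples 1, 2 and 3. It was highest in YY1 siRNA sample 6, and control siRNA sample 3 was above the other 2 YY1 siRNA samples. Its log2 fold change was 0.41 ± 0.22 (SE, adjusted p from edgeR = 0.516).

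Some genes for proteins of every ribosome were also at or near 0 in the tables. Rpl26 had 0 counts in all samples, Rpl30 had 5 to 7 counts in YY1 siRNA samples and 7 to 12 in control siRNA samples. Rps27 had 28 to 44 counts in YY1 siRNA samples and 39 to 41 in control siRNA samples, and Rpl34 had 34 to 54 counts in YY1 siRNA samples and 42 to 52 in control siRNA samples. Each of the 74 genes with a mean of at least 10 CPM had at least 1946 counts in each sample, so these 4 levels stand far below the rest of the families. Rps27 shared 98.6% of the 50-base stretches of its transcripts with other genes, Rpl30 79.2%, Rpl26 71.3% and Rpl34 37.9%. Near-identical copies listed beside them were at 0 (Gm15772, Gm12191, Rps27rt and Rpl34-ps1) or at 2 to 4 counts (Gm5481). The sources used here do not give how reads that match several copies were counted. These levels are therefore uncertain, and the part of shared sequence in them was not tested. Rpl32l, at 23 to 45 counts in YY1 siRNA samples and 18 to 38 in control siRNA samples, was the only other tested gene that low.

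Shared sequence and overlapping genes touched many of the others. Of the 83 genes, 44 shared more than 50% of their 50-base stretches with another gene, 27 overlapped an exon of another gene on the same strand and 18 on the opposite strand, and 31 held small RNA genes in their bodies. Rpl28 overlaps Ube2s and Rps18 overlaps Vps52 on the opposite strand, and reads of such partners cannot be told apart where strand was not used. Without the genes that overlap another gene, the median log2 fold change was 0.20 for the large and 0.28 for the small subunit.

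Per length of the principal transcript, the median gene stood at 797 CPM per kilobase in the large subunit and 966 CPM per kilobase in the small subunit, over all 6 samples. The highest levels per length were Rplp1 (2865 CPM per kilobase), Rpl9 (2726 CPM per kilobase) and Rpl32 (2484 CPM per kilobase) in the large subunit. In the small subunit they were Rps14 (3570 CPM per kilobase), Rps12 (3038 CPM per kilobase) and Rps21 (2425 CPM per kilobase). Rps15a, at 178 CPM per kilobase, was the lowest of the small subunit above 10 CPM, with a transcript model of 5179 bases, the longest among the 74 genes at or above 10 CPM. Rps12 averaged 2013 ± 694 CPM in YY1 siRNA cells and 1535 ± 235 CPM in control siRNA cells (SD, n = 3 each). Rps21 averaged 1093 ± 382 CPM in YY1 siRNA cells and 818.6 ± 111.3 CPM in control siRNA cells, and Rps15a averaged 1038 ± 315 CPM in YY1 siRNA cells and 807.6 ± 101.1 CPM in control siRNA cells (SD, n = 3 each).

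The genes did not differ between samples by 1 common factor: each had its own size of difference, and the order of these sizes was alike in both groups. The difference between YY1 siRNA samples 6 and 4 was set beside the difference between control siRNA samples 3 and 1, which share no sample, for the 74 genes with a mean of at least 10 CPM. The first ranged from -0.22 for Rps26 to 0.98 for Rps14 on the log2 scale, and the second from -0.01 for Rpl4 to 0.61 for Rpl9. Across genes, Pearson's r was 0.908 and Spearman's rho 0.928, as a description over genes that share 4 libraries and are not independent. Pearson's r was 0.903 within the large and 0.905 within the small subunit. The pair of samples was chosen after the values were seen, and all 9 combinations of a YY1 siRNA pair with a control siRNA pair gave 0.434 to 0.908. Across 3409 other genes with at least 1000 counts in every sample, r was 0.666 for the same samples and between -0.137 and 0.776 over the 9 combinations.

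The overlap of the ends was smaller for the topmost genes. Of the 10 genes with the largest difference in the YY1 siRNA pair, 5 were among the 10 largest in the control siRNA pair (50% of each list), and of the 10 smallest 9 (90% of each list). Of the 20 genes with the largest difference in the YY1 siRNA pair, 16 were among the 20 largest in the control siRNA pair (80% of each list), and of the 20 smallest 15 (75% of each list). The top 20 of the YY1 siRNA pair held 9 large-subunit and 11 small-subunit genes, the bottom 20 held 15 and 5. The median difference was 0.35 for the large and 0.61 for the small subunit in the YY1 siRNA pair, and 0.20 for the large and 0.36 for the small subunit in the control siRNA pair. Counting error was small beside these, with an SD of at most 0.044 for any of the 74 genes.

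Genes at the top of this order included Rps14, Rpl9, Rpl5 and Rps24, and genes at the bottom Rps26, Rpl28, Rpl4 and Rps4x. Rps2 ranked 71 of the 74 genes in the YY1 siRNA pair (-0.12) but 58 in the control siRNA pair (0.12). Rpl5 differed by 0.92 in the YY1 siRNA pair and by 0.53 in the control siRNA pair. Rpl28 differed by -0.21 in the YY1 siRNA pair and by 0.03 in the control siRNA pair. Rps26 had 675.8, 558.6 and 579.4 CPM in YY1 siRNA samples 4, 5 and 6, against 567.3, 626.8 and 570.4 CPM in control siRNA samples 1, 2 and 3, with no sample far from the rest. Features of the genes followed this order weakly: Spearman's rho with the YY1 siRNA difference was -0.17 for transcript length, -0.21 for coding length, 0.01 for GC content, 0.11 for the share of sequence found in other genes and 0.24 for the mean level.

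**Figure D5:**
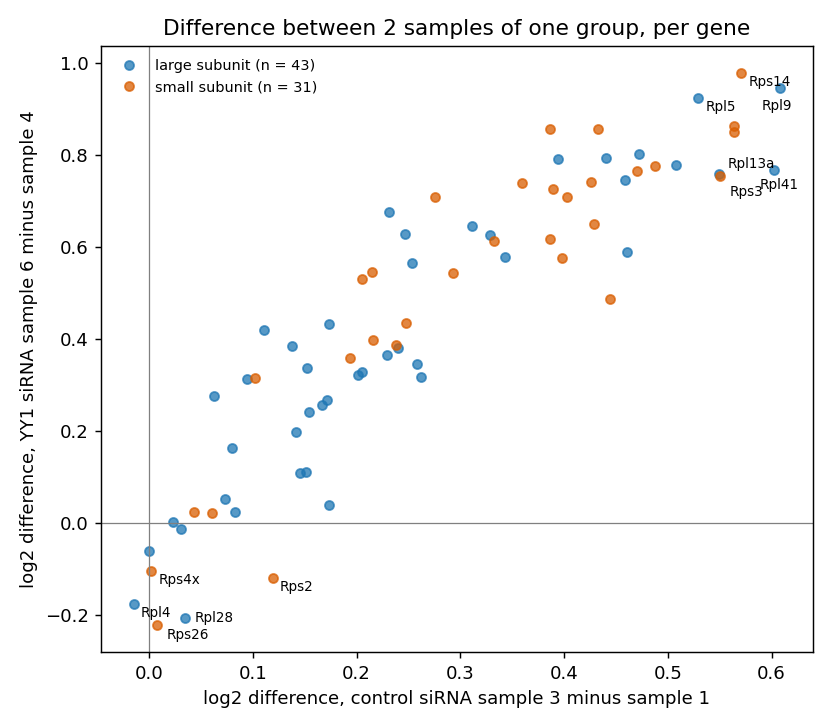
Each point is 1 ribosomal protein gene (43 large, 31 small), with the log2 difference between control siRNA samples 3 and 1 on the horizontal axis and between YY1 siRNA samples 6 and 4 on the vertical axis. The genes run from Rps26, Rpl28 and Rpl4 at the lower left to Rps14, Rpl9 and Rpl5 at the upper right (Pearson's r = 0.908 across genes).

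Promoter sequences were available from RefSeq (build GRCm38.p6, from 250 bases before to 50 bases after each start) for 62 of the 83 genes. The sequence AANATGGCG, the core of the known YY1 recognition motif, was searched on both strands. It occurred in 5 of the 62 promoters (8.06%), against 3.61% of 18141 other genes. The other genes, here and for the sequences below, include genes with too few counts to test and were not matched for level. The 5 promoters are shown because YY1 was the factor targeted, as 30 bases on the gene's strand, with the motif or its reverse complement in capitals. These are Rpl13a at chr7:45128698-45128727 (minus strand), Rpl34 at chr3:130730421-130730450 (minus strand), Rpl35a at chr16:33056479-33056508 (plus strand), Rps27 at chr3:90213703-90213732 (minus strand) and Rps28 at chr17:33824616-33824645 (minus strand).
Rpl13a: gcggctgccgAAGATGGCGgaggggcaggt
Rpl34: gcttccgtacAACATGGCGgcgcgctcgct
Rpl35a: ttcctctttcCGCCATCTTggcgcctgtgg
Rps27: agaccttccgAAGATGGCGaagcaacacgg
Rps28: gagtagcggaCGCCATATTccttccgctcc

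The match lay after the annotated start used here in Rpl13a (bases 29 to 37) and Rpl35a (bases 8 to 16). It lay before the start in Rpl34 (bases -103 to -95), Rps27 (-74 to -66) and Rps28 (-73 to -65). Fitted log2 fold changes of the genes with this sequence ranged from 0.04 to 0.51. Rpl13a and Rpl35a had log2 fold changes of 0.51 and 0.43, which were 0.22 and 0.13 without YY1 siRNA sample 6. Rpl34 and Rps27 had 0.13 and 0.04 at very low counts, and Rps28 had 0.07. Rps28 had 457.8, 394.1 and 465.2 CPM in YY1 siRNA samples 4, 5 and 6, against 402.7, 440.8 and 414.8 CPM in control siRNA samples 1, 2 and 3, with groups that overlapped. The median log2 fold change was 0.43 over the 3 large-subunit genes with it and 0.20 over the 31 without. In the small subunit it was 0.05 over the 2 genes with it and 0.30 over the 22 without. Rpl34 and Rps27, at very low counts, are among these few genes, so the direction by subunit cannot be judged. Rpl32, one of the promoters from which mouse YY1 was described, had 1142, 1176 and 1977 CPM in YY1 siRNA samples 4, 5 and 6, against 1001, 1093 and 1315 CPM in control siRNA samples 1, 2 and 3. It followed the pattern of most members, with a log2 fold change of 0.33 ± 0.22 (SE, adjusted p from edgeR = 0.588) that was 0.02 without YY1 siRNA sample 6. A match describes the letters only, and binding of YY1 was not measured here. The shorter sequence AANATGG occurred in 32.3% of the 62 promoters against 17.2% of other genes, and CCGGAAG, the motif of ETS factors, in 40.3% against 12.7%.

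Runs of at least 7 C or T that reach into the bases from 10 before to 20 after the start were searched on the gene's strand. They were found in 37 of the 62 promoters (59.7%), against 27.4% of other genes. Such a run can lie wholly before the annotated start, so it is a looser criterion than a TOP tract. The median log2 fold change was 0.21 with and 0.23 without such a run in the large subunit, and 0.32 with and 0.21 without it in the small subunit. Bases from 60 before to 30 after the start are shown for 2 genes that were high and 2 that were low in the order above. Runs are in capitals. The choice was made after the values were seen, to show 1 gene with a run and 1 without of each kind. It does not give the share of runs at either end. Of further genes looked at, Rpl9 and Rpl5 (high) had no such run, while Rpl28 and Rps26 (low) had 1 each. The windows are Rps18 at chr17:33955636-33955725 (minus strand), Rps3 at chr7:99483680-99483769 (minus strand), Rpl4 at chr9:64173327-64173416 (plus strand) and Rps4x at chrX:102189362-102189451 (minus strand).
Rps18: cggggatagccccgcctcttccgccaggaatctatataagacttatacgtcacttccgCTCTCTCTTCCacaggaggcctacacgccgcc
Rps3: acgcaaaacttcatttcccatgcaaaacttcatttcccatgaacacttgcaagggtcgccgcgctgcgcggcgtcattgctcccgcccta
Rpl4: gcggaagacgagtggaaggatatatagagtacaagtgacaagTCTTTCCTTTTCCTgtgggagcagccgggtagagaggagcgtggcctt
Rps4x: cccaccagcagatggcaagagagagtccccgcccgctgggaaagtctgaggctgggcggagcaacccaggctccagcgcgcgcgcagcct

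Rps18, in the head of the subunit, had 924.3, 999.1 and 1667 CPM in YY1 siRNA samples 4, 5 and 6, against 735.7, 853.7 and 1088 CPM in control siRNA samples 1, 2 and 3. Its run spans the start, while the run of Rpl4 lies wholly before the annotated start. Rps3, without such a run, showed the same order of samples as Rps18. The windows depend on the annotated start, and 10 of the 62 genes have several annotated starts.

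Some ribosomal protein genes have symbols outside the pattern. Rps3a1 averaged 899.9 ± 133.7 CPM in YY1 siRNA cells and 831.5 ± 33 CPM in control siRNA cells, and Rack1, a signalling scaffold on the head of the small subunit, averaged 2882 ± 811 CPM in YY1 siRNA cells and 2287 ± 312 CPM in control siRNA cells (SD, n = 3 each). The paralogs Rpl36al and Rpl22l1 had log2 fold changes of 0.21 and 0.48, and none of the genes named here passed. Rpl7l1, a relative of Rpl7 known for ribosome assembly, was the one with groups that did not overlap, at 83.1, 86.8 and 95.7 CPM in YY1 siRNA samples 4, 5 and 6, against 102.9, 98.1 and 106.6 CPM in control siRNA samples 1, 2 and 3. Its log2 fold change was -0.21 ± 0.07 (SE, edgeR unadjusted p = 0.0138, adjusted p = 0.353). Of all genes tested, 8.91% had groups that did not overlap with YY1 siRNA lower. An edgeR unadjusted p under 0.05 was found for 10.8% of them.

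None of the related gene lists held a gene that passed. The 78 genes of the mitochondrial ribosome had a median log2 fold change of 0.11, with 14 higher and 2 lower at an unadjusted p under 0.05 (20.5%, against 10.8% of all genes). The median fell to 0.02 without YY1 siRNA sample 6. Mrps18b averaged 17.7 ± 1.4 CPM in YY1 siRNA cells and 13.8 ± 1.3 CPM in control siRNA cells, Mrps10 averaged 56.3 ± 7.4 CPM in YY1 siRNA cells and 45.1 ± 2.3 CPM in control siRNA cells, and Mrps2 averaged 15.4 ± 0.9 CPM in YY1 siRNA cells and 19.2 ± 1.9 CPM in control siRNA cells (SD, n = 3 each). Their edgeR adjusted p were 0.261, 0.265 and 0.296.

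Of 20 TOP mRNAs for other proteins, mostly translation factors, 13 were fitted above 0 (65%, against 50.2% of all genes). Their median log2 fold change was 0.12. Eef1b2, an exchange factor of elongation, averaged 1243 ± 313 CPM in YY1 siRNA cells and 981.3 ± 124.0 CPM in control siRNA cells (SD, n = 3 each). Its log2 fold change was 0.34, and 0.11 without YY1 siRNA sample 6. The initiation factor genes Eif3h and Eif4a2 had log2 fold changes of 0.33 and 0.21, which were 0.09 and 0.05 without that sample. Regulators of TOP mRNAs and of S6, 15 genes, had a median log2 fold change of 0.0056, with the mTOR inhibitors Tsc1 at 0.16 and Tsc2 at -0.13 and the growth regulator Myc at -0.12. The 10 dedicated chaperones of ribosomal proteins had a median log2 fold change of -0.02, with Rrs1 at -0.16, Heatr3 at 0.12 and Bccip at -0.05. Rows named as ribosomal protein pseudogenes had a median log2 fold change of 0.46 over 4 tested. On the log2 scale the median tested row stood at 0.18, 0.25 and 0.90 in YY1 siRNA samples 4, 5 and 6. In control siRNA samples 1, 2 and 3 it stood at -0.32, 0.04 and 0.26, all relative to the control mean. The highest of the 7 rows, Rpl14-ps1, had 392 to 548 counts in YY1 siRNA samples and 395 to 447 in control siRNA samples.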

How the data were processed

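RNA was sequenced from 6 samples of 1 cell line, 3 with YY1 siRNA and 3 with control siRNA. The authors deposited whole-number read counts per gene symbol, 1 table per sample. The submitters' processing notes name STAR 2.6.1a, edgeR 3.30.0 and the build mm10. The counting program, annotation and strand setting were not given in the sources used here. The rows that name no gene (7.87% to 11.3% of counts in no gene, 1.01% to 1.15% ambiguous) stayed out of library sizes and tests. Samples held 15738457 to 20644057 counts in genes, at which 3 counts equal 0.191 and 0.145 CPM; such limits cover counting error only.

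All genes were fitted together in edgeR 4.0.16 under R 4.3.3 by its two-sided quasi-likelihood F test, with filterByExpr, TMM and robust dispersion, leaving 12148 genes. Benjamini-Hochberg adjusted p-values were called at 0.05. No gene was given a p over the ribosomal protein list alone. CPM are TMM-normalised. DESeq2 1.42.0, limma-voom (limma 3.58.1), other scalings and filters, thinned counts, length and GC offsets (mgcv 1.9.3) and leaving out each sample were alternatives. The fit was tested on simulated data. Gene models came from GENCODE M21 (mm10), which matched 97.9% of symbols, and promoters from RefSeq. Levels per length divide the mean CPM by the principal transcript's length.

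The genes and lists were chosen with earlier results of these data known. Named genes follow a rule: Yy1, the P stalk, 5S particle, fusions and paralog pairs, per subunit the genes with the smallest p, the highest and lowest changes and the highest and lowest levels per length, the 3 smallest p-values of each other list, and genes outside the pattern, of which 1 is not reported here. Rpl28, Rpl35a, Rps2, Rps18, Rps24, Rps26, Rps28, Rpl30 and Rpl26, the promoter genes and single pseudogene rows were named after their values were seen.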

Additional observations from a re-analysis of the deposited data

Results flagged for a closer look

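In YY1 siRNA samples 5 and 6, 10.7% and 11.3% of counts fell in no gene, both above the highest control siRNA sample at 9.03%, while YY1 siRNA sample 4 had 7.87%. These counts are outside the gene measurements. Ribosomal protein genes held 6.28%, 6.23% and 8.78% of gene counts in YY1 siRNA samples 4, 5 and 6, against 5.45%, 5.94% and 6.73% in control siRNA samples 1, 2 and 3, where the share in no gene was 7.99%, 8.64% and 9.03%. Both shares were highest in YY1 siRNA sample 6 and had the same order in the control siRNA samples, while YY1 siRNA sample 5 was high in the one and not in the other. Their relation was not tested. What the counts in no gene consist of was not tested.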

How the results depend on the processing

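No ribosomal protein gene had an adjusted p under 0.05 in any of the 9 other settings or the 6 that left out a sample. At an unadjusted p under 0.05 there were 0 of 77 in the fit as reported, where 10.8% of all genes stood. Library size alone gave 8 of 77 (11.6% of all genes), and no filter on low counts gave 4 of 81 (9.40% of all genes). DESeq2 gave 7 of 81 (5.53% of all genes) and limma-voom 5 of 77 (11.04% of all genes). Length and GC offsets gave 5 of 77 (13.8% of all genes). Of these settings, the share of ribosomal protein genes was above that of all genes only with DESeq2. Leaving out YY1 siRNA sample 5 gave 17, control siRNA sample 3 gave 15, YY1 siRNA sample 4 gave 9, and each of the other 3 gave 0. The shares of all genes were 11.7%, 11.3% and 19.1% in the first 3 of these settings and 5.40% to 8.20% in the others. The large-subunit median log2 fold change was 0.08 to 0.20 over the other settings, lowest with the offsets, and 0.036 to 0.275 over the settings that left out a sample. The small-subunit median was 0.16 to 0.28, again lowest with the offsets, and 0.044 to 0.376. Without YY1 siRNA sample 6 the medians were 0.036 and 0.044. With the offsets, 59 of 77 genes were above 0, and the cause was not tested. The large minus small difference of medians (-0.09 in the fit as reported) was -0.151 to -0.0078 when a sample was left out, with -0.0078 for the omission of YY1 siRNA sample 6, -0.151 for that of control siRNA sample 3 and -0.05 for that of control siRNA sample 1. The difference of the large to small ratio was -0.097 (without YY1 siRNA sample 4) to -0.026, and the share of gene counts differed by 0.213 to 1.49 percentage points, both nearest to 0 without YY1 siRNA sample 6. The median of the mitochondrial list, whose alternatives were added after seeing the data, was 0.016 to 0.189 with a sample left out and 0.04 to 0.12 otherwise. Yy1 passed in every setting, with log2 fold changes of -0.71 to -0.64 and an adjusted p of at most 0.0439. Genes that passed numbered 1 over all genes in the fit as reported, 7 with library size alone, 83 without a filter, 19 with DESeq2, 16 with the offsets, 41 when YY1 siRNA sample 4 was left out and 3 when sample 6 was. No paired analysis was possible because the groups share no sample numbers. At these depths counting error is small for the 74 ribosomal protein genes with a mean of at least 10 CPM. For them the number of samples limits the precision. Counting error was not computed for genes of the other lists, some of which have far fewer counts.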
